A study of Homo sapiens with 9 samples.

Results

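The human mitochondrial genome encodes 37 genes, and all 37 were present among the 57905 genes of the deposited count table. They were taken by symbol: every gene whose name begins with MT- once its Ensembl identifier was matched to a symbol. They comprise 13 protein genes, 2 ribosomal RNA (rRNA) genes and 22 transfer RNA (tRNA) genes. RNA was sequenced from KYSE180, an established human line of esophageal squamous cell carcinoma that the series title calls KDM6A-deficient. There were 3 groups of 3 libraries: cells with the EZH2 hairpin shEZH2#1, cells with the EZH2 hairpin shEZH2#3, and control cells with a luciferase hairpin, shluc. Cells of all 3 groups, the controls included, had received 6 Gy of ionizing radiation, and no unirradiated sample was analysed here. Titles and design text speak of a hairpin knockdown, whereas a genotype label calls the EZH2 libraries knockout and the shluc libraries WT. No label says whether the 3 libraries of a group came from separate cultures, so the spread behind each p-value may be technical and covers these libraries alone.

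Mitochondrial DNA is a small circular genome present in many copies per cell. Both of its strands are transcribed as long precursor RNAs, from which tRNAs are cut out between the mRNAs and rRNAs. The mRNAs encode core subunits of complexes I, III, IV and V of oxidative phosphorylation, and every other subunit of these complexes is made from nuclear genes. Most of the mRNAs carry short poly(A) tails, which complete the stop codon where the gene ends within it. The rRNAs carry shorter ones. EZH2 is the catalytic subunit of Polycomb repressive complex 2, which methylates histone H3 in the nucleus. Mitochondrial DNA carries no histones.

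Neighbouring protein genes of this genome overlap, which bears on how reads could be counted. MT-ATP8 (chrM:8366-8572) and MT-ATP6 (chrM:8527-9207) share 46 bases, which is 22.2% of MT-ATP8. MT-ND4L (chrM:10470-10766) and MT-ND4 (chrM:10760-12137) share 7 bases. Each pair lies on the same strand and is known to stay together on a joint mRNA. MT-ATP6 and MT-CO3 share 1 base, and the tRNA genes MT-TI with MT-TQ and MT-TC with MT-TY share 3 bases and 1 base. The overlapping ends are shown in GRCh38 (GENCODE 29 transcripts, plus strand), with the shared bases in capitals.
MT-ATP8 end, chrM:8453-8572: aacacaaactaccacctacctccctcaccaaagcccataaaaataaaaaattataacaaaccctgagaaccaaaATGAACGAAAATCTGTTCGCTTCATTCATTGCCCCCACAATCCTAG
MT-ATP6 start, chrM:8527-8646: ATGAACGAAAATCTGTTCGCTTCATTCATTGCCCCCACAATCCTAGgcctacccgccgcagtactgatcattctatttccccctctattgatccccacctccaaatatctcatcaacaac
MT-ND4L end, chrM:10647-10766: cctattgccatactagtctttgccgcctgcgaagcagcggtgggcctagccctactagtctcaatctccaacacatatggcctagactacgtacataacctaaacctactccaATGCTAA
MT-ND4 start, chrM:10760-10879: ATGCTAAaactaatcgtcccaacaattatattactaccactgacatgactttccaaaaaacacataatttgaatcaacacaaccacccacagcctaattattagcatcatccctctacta
A read that lies within the shared bases of MT-ATP8 and MT-ATP6 cannot be assigned to either by sequence.

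The 3' ends are shown because the libraries were selected for poly(A) tails. The last 30 bases of 4 protein genes follow in the same build and strand, with the last whole or incomplete codon in capitals.
MT-CO1 3' end, chrM:7416-7445: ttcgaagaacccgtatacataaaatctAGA
MT-ND1 3' end, chrM:4233-4262: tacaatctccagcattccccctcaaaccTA
MT-CYB 3' end, chrM:15858-15887: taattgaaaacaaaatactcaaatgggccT
MT-ND3 3' end, chrM:10375-10404: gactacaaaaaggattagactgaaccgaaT
MT-ND1 ends 2 bases into its last codon. MT-CYB and MT-ND3 end 1 base into theirs, as do MT-ND2, MT-CO3 and MT-ND4. In the other 7 protein genes the annotated length is a whole number of codons.

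Library totals were 15733529, 16946226 and 14958011 counts with shEZH2#1, 21152006, 18366510 and 20366699 with shEZH2#3, and 19508444, 18923610 and 18563879 with shluc. EZH2 itself stood at 12.1, 11.1 and 6.62 CPM (counts scaled to a common library total) with shEZH2#1, at 7.99, 9.64 and 8.10 with shEZH2#3, and at 20.5, 26.7 and 21.9 with shluc. Both hairpins fell below shluc without overlap, and the log2 fold changes were -0.94 ± 0.18 and -0.96 ± 0.18 (SE; edgeR, adjusted p = 0.00163 and 0.000433). In a fit with an offset per library for GC content and gene length they were -0.73 and -0.56, and both passed. Of 11 squamous epithelial markers only KRT17 was abundant, with a mean of 1269 CPM. CDH1 averaged 4.52 CPM, EPCAM 2.42 CPM, and the other 8, among them KRT5, KRT14, TP63 and SOX2, averaged below 1 CPM. Summed over 6 fibroblast markers, levels ran from 49.0 to 105 CPM. Of these 6, 4 averaged at least 1 CPM, and COL1A2 was at 0. The sum over 5 leukocyte markers was 15.98 to 27.6 CPM, with PTPRC and CD3E at 0. Over 3 endothelial markers it was 7.35 to 28.1 CPM, with KDR at 0. Library 1 of shEZH2#3 stood apart for short RNAs, as described below, and the main values it moves are given with and without it.

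The mitochondrial share of the counts lay on opposite sides of shluc with the 2 hairpins. Mitochondrially encoded genes took 1.86, 1.61 and 1.66% of all counts with shEZH2#1, 7.60, 5.68 and 5.43% with shEZH2#3, and 3.36, 4.33 and 3.40% with shluc. All shEZH2#1 libraries lay below, and all shEZH2#3 libraries above, every shluc library. The means were 1.71% ± 0.129 with shEZH2#1, 6.24% ± 1.19 with shEZH2#3 and 3.70% ± 0.545 with shluc (SD, n = 3 each). Set against shluc these are ratios of 0.463 for shEZH2#1 and 1.69 for shEZH2#3. The exact two-sided permutation test gave p = 0.1 for each pair of groups, the smallest value that 3 against 3 libraries allow. Without library 1 of shEZH2#3 the difference of that group from shluc was 1.86 percentage points, against 2.54 with it. In bulk RNA, a change in the number of cells of one kind and a change in RNA per cell cannot be told apart, nor can fewer mitochondrial transcripts and more of the others in a library.

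**Figure D1:**
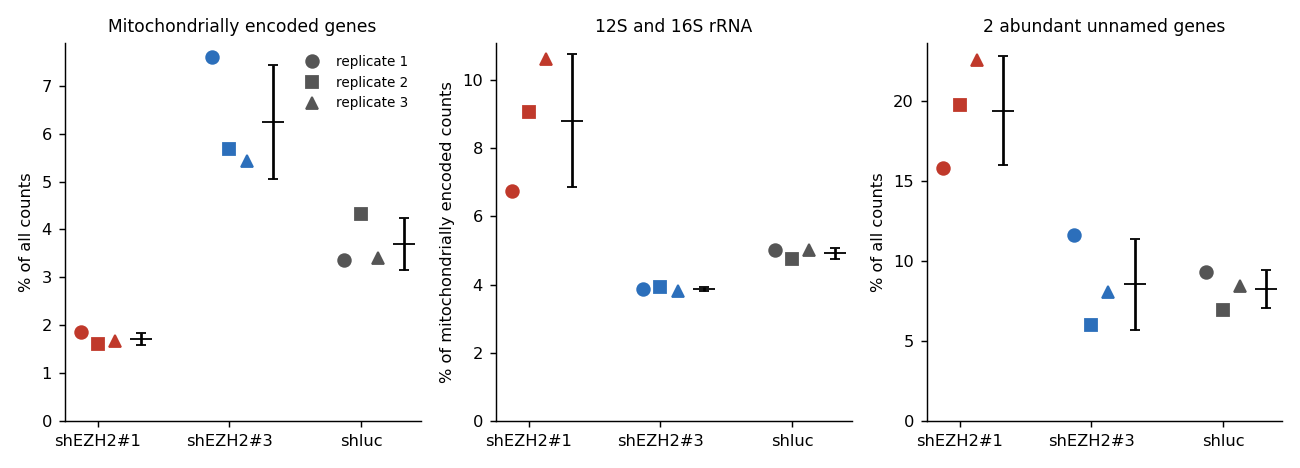
Left: percentage of all counts on the 37 mitochondrially encoded genes in each library. Middle: percentage of those mitochondrial counts on the 12S and 16S rRNA genes. Right: percentage of all counts on 2 abundant genes without a symbol. Symbols mark the replicate number, and bars the mean ± SD of 3 libraries. The mitochondrial share is 1.71% with shEZH2#1, 6.24% with shEZH2#3 and 3.70% with shluc, with no overlap between groups.

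The share also depends on what else is in a library. The 2 most abundant genes without a symbol in the tables used here together took 19.4% ± 3.40 of counts with shEZH2#1, 8.54% ± 2.84 with shEZH2#3 and 8.23% ± 1.17 with shluc (SD, n = 3 each). With these left out of the total, the mitochondrial share still differed from shluc by -1.90 percentage points for shEZH2#1 and by 2.82 for shEZH2#3.

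All 22 tRNA genes were listed at 0 in all 9 libraries. They are 59 to 75 nt long. A count of 0 allows up to 3 counts, or 0.142 to 0.201 CPM depending on the library, for counting error only. Other short genes were nearly as empty: of 2119 other genes below 100 nt only 4 (0.189%) had any count, whereas 21531 of 50181 genes of 100 nt or more (42.9%) had one. The tRNAs are therefore not measured here. The remaining 15 genes had 306 to 330553 counts per library, and all 15 passed the filter on low counts.

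Within a library, levels were compared per kb of gene length. In all 3 groups the cytochrome c oxidase subunits MT-CO1, MT-CO3 and MT-CO2 and the complex I subunit MT-ND1 were the 4 highest. With shEZH2#3 MT-ND1 ranked above MT-CO2. In shEZH2#1 libraries MT-CO1, MT-CO3 and MT-CO2 averaged 3009, 2863 and 2689 CPM per kb, with overlapping ranges, and MT-ND1 followed at 1456. In shEZH2#3 libraries the order was MT-CO1 at 9882, MT-CO3 at 9760, MT-ND1 at 8978 and MT-CO2 at 7945 CPM per kb, each overlapping the next. In shluc libraries MT-CO1, MT-CO3 and MT-CO2 averaged 7004, 6661 and 5870 CPM per kb, and MT-ND1 3254. The lowest protein genes were the same in shEZH2#1 and shluc: MT-ND6, MT-ND4L and then MT-ATP8, at 220, 169 and 112 CPM per kb with shEZH2#1 and 415, 323 and 164 with shluc. MT-ND4L and MT-ATP8 are short genes on joint mRNAs with MT-ND4 and MT-ATP6. Counts per kb may therefore not rank them by RNA amount, which was not tested. The 16S rRNA MT-RNR2 averaged 658 CPM per kb with shEZH2#1, 1319 with shEZH2#3 and 892 with shluc. These rRNA levels lie below most mRNAs in libraries selected for poly(A) tails, and are not the cell's rRNA content.

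**Figure D2:**
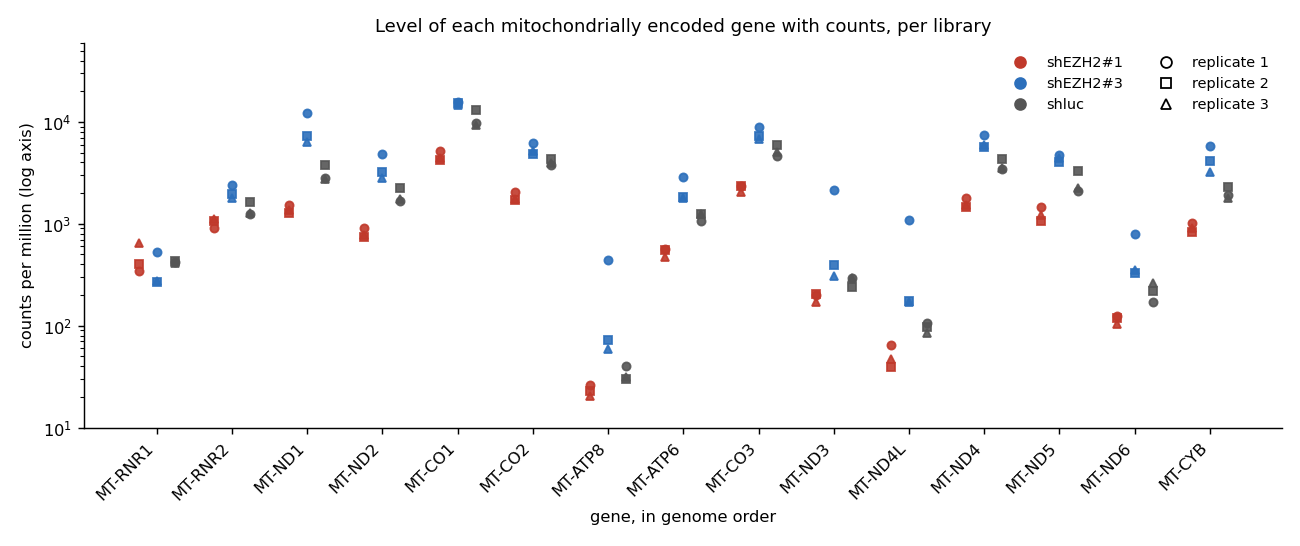
Level of each of the 15 mitochondrially encoded genes with counts, in CPM on a log axis, in genome order. Color marks the group and shape the replicate number. shEZH2#3 libraries sit above shluc and shEZH2#1 libraries below it for each protein gene, while MT-RNR1 overlaps between all groups; library 1 of shEZH2#3 stands far above its group for MT-ATP8, MT-ND3 and MT-ND4L.

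With shEZH2#1, 9 of the 13 protein genes fell, 4 did not pass the test and none rose. The median log2 fold change of the 13 was -0.85, against -0.07 over all 13252 genes tested. In that comparison 19.0% of all genes were called (edgeR's quasi-likelihood test, adjusted p below 0.05 over all genes), 11.2% as higher and 7.89% as lower. With shEZH2#3 all 13 protein genes rose, with a median of 1.42 against -0.01 over all genes. There the background was 44.2% called, 24.4% as higher and 19.8% as lower. In the direct comparison all 13 were lower with shEZH2#1 than with shEZH2#3, with a median of -2.28 against 0.01 over all genes, and 25.0% of all genes were called, 9.46% as higher and 15.5% as lower. In CPM, 14 of the 15 genes with counts lay without overlap below shluc with shEZH2#1 (34.4% of all genes did) and 14 of 15 above shluc with shEZH2#3 (11.1% of all genes). Between the hairpins 14 of 15 lay lower with shEZH2#1 (15.0% of all genes). On the TMM scale, which the test uses, these counts were 11, 14 and 14 of 15, against 18.9%, 26.9% and 23.2% of all genes. The comparisons with shluc share the shluc libraries, and each comparison's own values are given side by side.

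**Figure D3:**
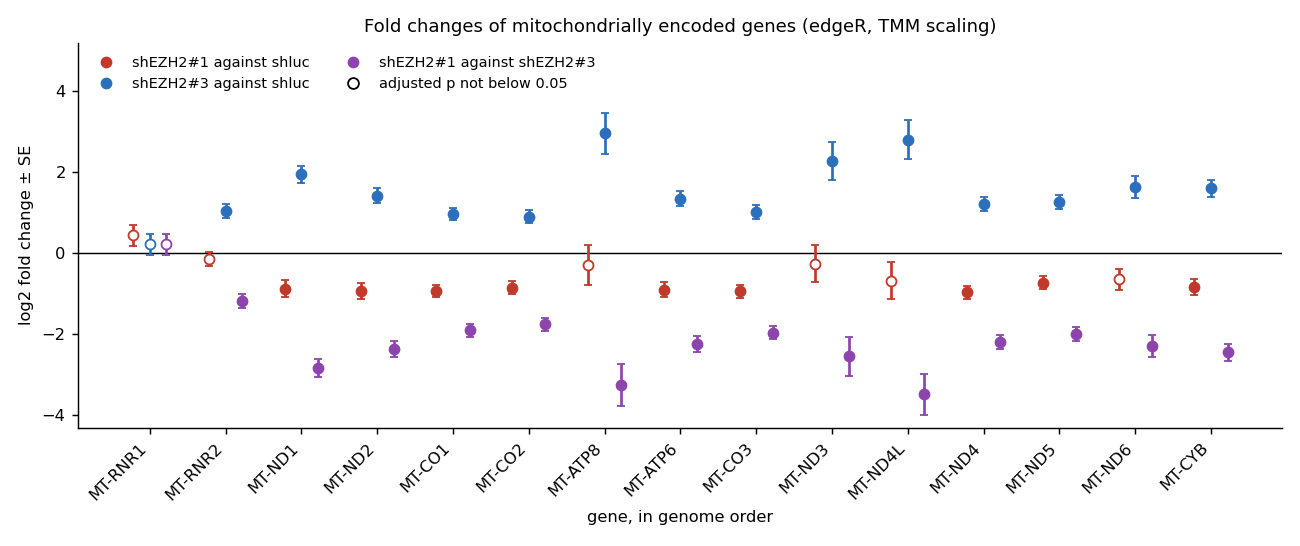
Log2 fold change ± SE of each mitochondrially encoded gene with counts, in genome order, for shEZH2#1 against shluc, shEZH2#3 against shluc and shEZH2#1 against shEZH2#3. Filled points passed an adjusted p below 0.05 and open points did not. The protein genes lie below 0 for shEZH2#1 against shluc and above 0 for shEZH2#3 against shluc; MT-RNR1 is open in all 3.

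Complex I, the NADH dehydrogenase through which electrons enter the chain, takes 7 of its subunits from this genome. MT-ND1, a membrane subunit at the junction with the peripheral arm, had 1532, 1282 and 1361 CPM with shEZH2#1, 12106, 7353 and 6291 CPM with shEZH2#3, and 2807, 3767 and 2759 CPM with shluc. The 3 groups did not overlap. Its log2 fold change was -0.87 ± 0.21 with shEZH2#1 (SE; edgeR, adjusted p = 0.007) and 1.95 ± 0.22 with shEZH2#3 (adjusted p = 6.23e-06). MT-ND2, MT-ND4 and MT-ND5, membrane subunits related to antiporters, fell by 0.93, 0.96 and 0.72 with shEZH2#1 and rose by 1.42, 1.22 and 1.27 with shEZH2#3 on the log2 scale, each past the test.

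The shortest complex I genes, MT-ND3 and MT-ND4L, gave less certain sizes. MT-ND3 had 201, 203 and 172 CPM with shEZH2#1, 2167, 394 and 304 CPM with shEZH2#3, and 292, 241 and 294 CPM with shluc. MT-ND4L had 64.7, 39.1 and 47.1 CPM with shEZH2#1, 1089, 175 and 172 CPM with shEZH2#3, and 106, 97.0 and 84.8 CPM with shluc. In both genes library 1 of shEZH2#3 was several times higher than the other libraries of its group, which still lay above shluc. The fold changes with shEZH2#3 were 2.28 ± 0.48 for MT-ND3 and 2.81 ± 0.49 for MT-ND4L. Without that library they were 0.76 and 1.28, and both genes were still called. With shEZH2#1 neither passed (edgeR, -0.26 ± 0.46, adjusted p = 0.731, and -0.67 ± 0.47, adjusted p = 0.33).

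MT-ND6 is the only protein gene made from the light-strand precursor, so it samples the other strand. In libraries selected for poly(A) tails its level may not compare with those of the heavy-strand mRNAs, which was not tested. MT-ND6 had 123, 120.3 and 104 CPM with shEZH2#1, 786, 327 and 350.4 CPM with shEZH2#3, and 172, 219 and 263 CPM with shluc, and the 3 groups did not overlap. It rose by 1.64 ± 0.27 with shEZH2#3 (edgeR, adjusted p = 0.000126), or by 1.06 without library 1 of that group. With shEZH2#1 its fold change of -0.64 ± 0.26 did not pass (adjusted p = 0.0907). That call and that of MT-ND4L change with the setting. Without library 1 of shEZH2#3 MT-ND6 passed at -0.64 and MT-ND4L at -0.67 with shEZH2#1 (edgeR, adjusted p = 0.00497 and 0.00412). With that library kept, both also passed in a fit with an offset per library for GC content and gene length. Over all alternatives the adjusted p ran from 0.00041 to 0.339 for MT-ND6, which passed in 7 of 23, and from 0.000629 to 0.56 for MT-ND4L, which passed in 6 of 22.

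Complex III has a single subunit from this genome, MT-CYB, the cytochrome b that passes electrons between quinone sites. It had 1028, 827 and 914 CPM with shEZH2#1, 5806, 4123 and 3221 CPM with shEZH2#3, and 1922, 2302 and 1799 CPM with shluc. The groups did not overlap, with log2 fold changes of -0.84 ± 0.20 (edgeR, adjusted p = 0.00563) and 1.60 ± 0.20 (adjusted p = 1.29e-05).

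Complex IV, the terminal oxidase, takes its 3 catalytic core subunits from this genome. MT-CO1, which holds the oxygen-reducing site, was the most abundant member: 5193, 4268 and 4458 CPM with shEZH2#1, 15628, 15314 and 14770.2 CPM with shEZH2#3, and 9828, 13209 and 9363 CPM with shluc. Its 3 shEZH2#3 libraries agreed closely, with library 1 not apart. The log2 fold changes were -0.93 ± 0.16 with shEZH2#1 (edgeR, adjusted p = 0.000572) and 0.97 ± 0.16 with shEZH2#3 (adjusted p = 0.000122). MT-CO2, which receives electrons from cytochrome c, fell by 0.85 with shEZH2#1 and rose by 0.90 with shEZH2#3. MT-CO3 fell by 0.94 and rose by 1.02, and both genes passed in each comparison.

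Complex V, the ATP synthase, takes 2 membrane subunits from this genome. MT-ATP6, part of the proton channel, had 559.9, 549 and 468 CPM with shEZH2#1, 2889, 1834 and 1809 CPM with shEZH2#3, and 1062, 1239 and 1248 CPM with shluc. It fell by 0.90 with shEZH2#1 and rose by 1.35 with shEZH2#3 (edgeR, adjusted p = 0.003 and 3.84e-05). MT-ATP8, a small subunit of the same membrane part, had 26.2, 22.9 and 20.5 CPM with shEZH2#1, 438, 71.6 and 58.7 CPM with shEZH2#3, and 40.1, 30.2 and 31.5 CPM with shluc. In CPM its groups did not overlap. With shEZH2#1 its fold change of -0.29 ± 0.49 did not pass, and with shEZH2#3 it rose by 2.97 ± 0.51, or by 1.36 without library 1 of that group.

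Set directly against shEZH2#3, shEZH2#1 had lower levels of all protein genes, and the size differed between them. MT-CO2, MT-CO1 and MT-CO3 had -1.75 ± 0.16, -1.90 ± 0.16 and -1.96 ± 0.17, or -1.60, -1.85 and -1.80 without library 1 of shEZH2#3. MT-ND1 had -2.82 ± 0.22 and MT-CYB -2.44 ± 0.20, or -2.45 and -2.15 without that library. MT-ND4L had -3.48 ± 0.51, MT-ATP8 -3.26 ± 0.52 and MT-ND3 -2.54 ± 0.48, or -1.95, -1.65 and -1.02 without it. The order of the genes by size therefore differs without library 1. Over the 13 protein genes Spearman's rho of the log2 fold change with gene length was -0.62 for shEZH2#1 and -0.65 for shEZH2#3 against shluc. It was -0.01 for shEZH2#3 without its library 1, and 0.12 and -0.29 with the GC and length offset. With position among the 12 heavy-strand genes it was 0.24 and 0.09. These are descriptions.

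Within the 2 pairs that share an mRNA, the short upstream gene had far fewer counts per kb than its partner. MT-ATP8 stood at 15.4, 13.7 and 14.4% of MT-ATP6 per kb with shEZH2#1, at 49.9, 12.8 and 10.7% with shEZH2#3, and at 12.4, 8.03 and 8.30% with shluc. MT-ND4L stood at 16.6, 12.4 and 14.4% of MT-ND4 per kb with shEZH2#1, at 68.0, 14.4 and 13.3% with shEZH2#3, and at 14.3, 10.5 and 11.1% with shluc. In both pairs library 1 of shEZH2#3 is the library that departs from the rest. Deposited MT-ATP6 values had decimals in all 9 libraries, as did those of MT-ND2 and MT-CO1, whereas those of MT-ATP8, MT-ND4L and MT-ND4 were whole numbers throughout.

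The rRNAs did not follow the mRNAs in full. MT-RNR2, the 16S rRNA of the large mitochondrial ribosomal subunit, had 907, 1058 and 1114 CPM with shEZH2#1, 2409, 1961 and 1801 CPM with shEZH2#3, and 1261, 1621 and 1291 CPM with shluc. It rose by 1.04 ± 0.17 with shEZH2#3 (edgeR, adjusted p = 0.000167). With shEZH2#1 its -0.15 ± 0.17 did not pass (adjusted p = 0.593). MT-RNR1, the 12S rRNA of the small subunit, had 347, 400.3 and 653 CPM with shEZH2#1, 527, 267 and 273 CPM with shEZH2#3, and 421, 428 and 415 CPM with shluc. The groups overlapped, and MT-RNR1 was the only one of the 15 genes called in neither hairpin nor between them (edgeR; 0.45 ± 0.26, 0.23 ± 0.26 and 0.22 ± 0.26, adjusted p = 0.251, 0.499 and 0.581). Its sign with shEZH2#3 depends on library 1 of that group and on scaling: it was -0.22 without that library and -0.24 with libraries scaled by their totals. Between the hairpins it passed as higher with shEZH2#1 once that library was left out (0.66, adjusted p = 0.0306, over a range of 0.0129 to 0.936 among the alternatives).

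As a share of the mitochondrial counts alone, which no scaling of the libraries touches, the rRNAs separated all 3 groups. The 2 rRNAs together held 6.76, 9.05 and 10.6% of mitochondrial counts with shEZH2#1, 3.86, 3.92 and 3.82% with shEZH2#3, and 5.00, 4.74 and 5.02% with shluc. MT-RNR1 held 2.76% ± 1.05 with shEZH2#1, 0.555% ± 0.120 with shEZH2#3 and 1.15% ± 0.142 with shluc (SD, n = 3 each). MT-RNR2 held 6.05% ± 1.01, 3.31% ± 0.140 and 3.77% ± 0.0287 in the same groups. Every exact permutation p was 0.1, and over 45 tests of shares, 15 genes in 3 pairs of groups, no Benjamini-Hochberg value was below 0.214. shEZH2#1 replicate 3 had the highest MT-RNR1 level of its group, and shEZH2#1 replicate 1 the lowest.

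**Figure D4:**
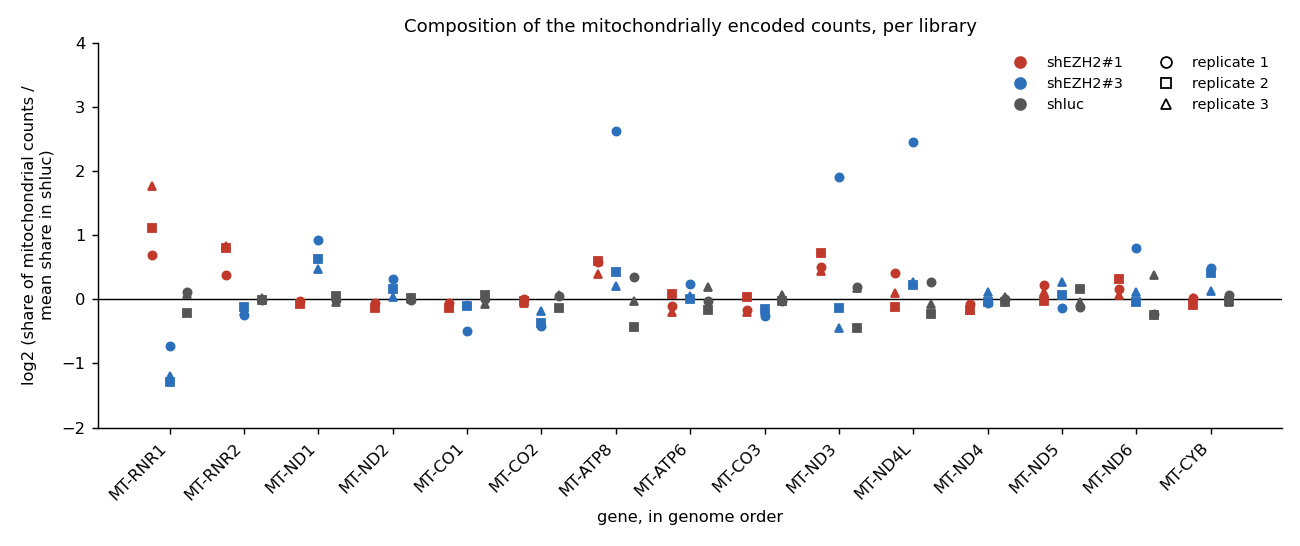
Log2 of each gene's share of the mitochondrial counts in a library over its mean share in shluc, in genome order; color marks the group and shape the replicate number. Both rRNAs lie above 0 with shEZH2#1 and below 0 with shEZH2#3. MT-ND1 and MT-CYB lie above 0 with shEZH2#3, and MT-ATP8 and MT-ND3 lie above 0 with shEZH2#1. Library 1 of shEZH2#3 is the highest point in MT-ATP8, MT-ND3, MT-ND4L and MT-ND6, and also in MT-ND1, MT-ND2, MT-ATP6 and MT-CYB.

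Among the mRNAs, MT-ND3 and MT-ATP8 held larger shares with shEZH2#1 than with shluc, without overlap. MT-ND3 held 1.13% ± 0.120 with shEZH2#1 and 0.763% ± 0.178 with shluc. MT-ATP8 held 0.135% ± 0.0108 with shEZH2#1 and 0.0939% ± 0.0247 with shluc. The shluc libraries had 0.867, 0.558 and 0.864% for MT-ND3 and 0.119, 0.0699 and 0.0925% for MT-ATP8. Both were lowest in library 2 of shluc, which was also low for short nuclear genes, as given below. With shEZH2#1 MT-ND2 and MT-ND4 held smaller shares than with shluc, 4.74% against 5.09% and 9.33% against 10.2%. MT-ND1 held 8.13% ± 0.155 of mitochondrial counts with shEZH2#1, 13.5% ± 2.22 with shEZH2#3 and 8.39% ± 0.299 with shluc, and shEZH2#3 did not overlap shluc. MT-CYB held 6.94% ± 0.895 with shEZH2#3 and 5.44% ± 0.237 with shluc, also without overlap. MT-CO1, MT-CO2 and MT-CO3 held smaller shares with shEZH2#3 than with shluc: 24.9% against 29.1%, 8.78% against 10.9% and 12.3% against 14.2%. Without library 1, MT-CO1 held 27.1% and MT-ND1 12.3% with shEZH2#3. Between shEZH2#1 and shluc the shares did not overlap in 6 of the 15 genes (4 higher, 2 lower). Between shEZH2#3 and shluc they did not overlap in 8 (3 higher, 5 lower). Each of these had an exact permutation p of 0.1, the smallest that 3 against 3 libraries allow. Shares within a library add up to a whole, so a larger share of one gene lowers those of others. The counts therefore do not stand for separate results, and they have no counterpart over all genes. MT-ND6, from the light strand, held 0.678% ± 0.0627 with shEZH2#1, 0.752% ± 0.247 with shEZH2#3 and 0.596% ± 0.153 with shluc, and its groups overlapped.

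Library 1 of shEZH2#3 was higher than the mean of the other libraries of its group in all 15 genes, and most so in the short ones. The log2 differences, on the scaled level, were 2.85 for MT-ATP8 (207 nt), 2.74 for MT-ND4L (297 nt), 2.74 for MT-ND3 (346 nt) and 1.31 for MT-ND6 (525 nt). They were 0.15 for MT-CO1 (1542 nt) and 0.24 for MT-ND5 (1812 nt). Across the 15 genes the Spearman correlation of this difference with gene length was -0.74, given as a description, since genes of a library share its preparation. Nuclear genes of that library showed the same order: a median difference of 1.54 for 35 genes below 400 nt, 0.82 for 379 genes from 400 nt to below 800 nt, and -0.08 for 6494 genes of 3200 nt or more. Library 2 of shluc ran the other way, with -0.83 below 400 nt and 0.21 at 3200 nt or more among nuclear genes, and a Spearman correlation with length of 0.86 over the 15 genes. Library 3 of shluc had 0.61 below 400 nt and -0.16 at 3200 nt or more, set against a mean that includes library 2. Over nuclear genes Spearman's rho with length was -0.51 in library 3 of shluc, 0.53 in its library 2 and -0.15 in library 1 of shEZH2#3. No source used here gives fragment sizes, and the part of library preparation in these differences was not tested.

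**Figure D5:**
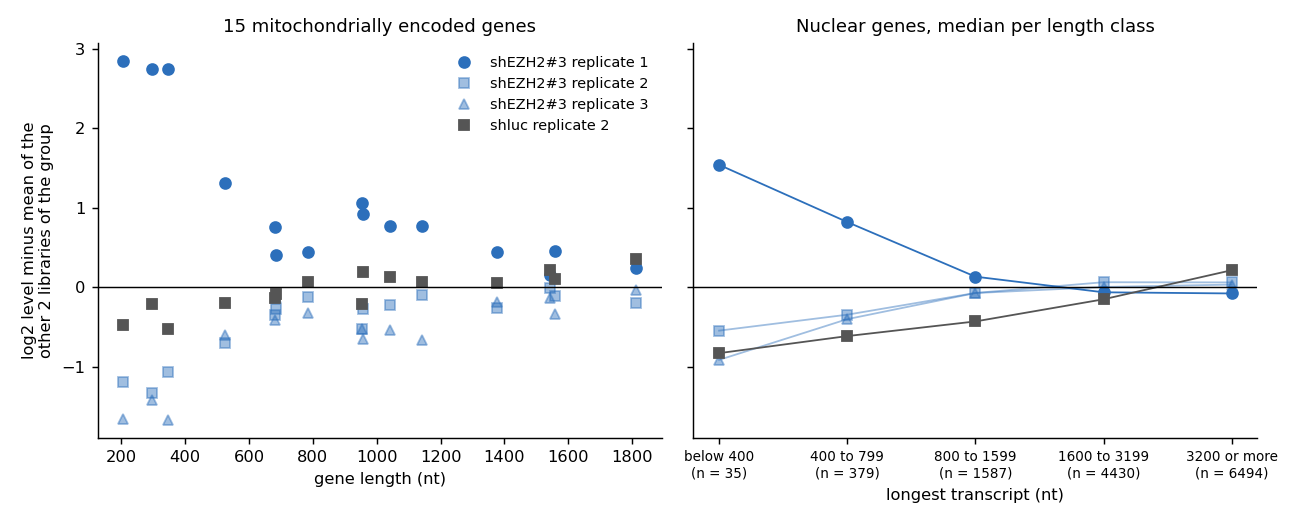
Left: log2 level of a library minus the mean of the other 2 libraries of its group for each of the 15 mitochondrially encoded genes, against gene length in nt. Right: the median of the same difference over nuclear genes in 5 classes of transcript length. Library 1 of shEZH2#3 lies at 2.74 to 2.85 for the 3 shortest mitochondrial genes and at 1.54 for nuclear genes below 400 nt, and library 2 of shluc lies below 0 for short genes.

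The groups also differed in how levels followed GC content. For 12925 nuclear genes, the difference of a library's log2 level from the mean of all 9 libraries was correlated with GC content. Spearman's rho, a description with genes as points, ran from -0.25 to 0.25 with shEZH2#1, from 0.38 to 0.64 with shEZH2#3 and from -0.69 to -0.39 with shluc. A fit with a GC and length offset per library called 11 of the 15 genes lower with shEZH2#1, adding MT-ND4L and MT-ND6. With shEZH2#3 it called 14 higher. Of all 13252 genes that fit called 1311 lower with shEZH2#1 and 1679 higher with shEZH2#3. The median of the protein genes was then -0.87 with shEZH2#1 and 1.65 with shEZH2#3. The fold with shEZH2#3 became 1.96 for MT-ATP8, 1.99 for MT-ND4L and 1.68 for MT-ND3. The part of GC content in the differences between groups was not tested beyond this fit.

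Nuclear copies of mitochondrial DNA share sequence with it and may take reads from it, so their values are uncertain. There were 402 such genes, of which 24 had any count and 9 were tested. All 9 rose with shEZH2#3 (median 2.04), where 44.2% of all genes were called. Without library 1 of that group 7 of the 9 rose, with a median of 1.20, where 5316 of all 13464 genes were called. Of the 9, 8 were lower with shEZH2#1 than with shEZH2#3 (25.0% of all genes were called). Without library 1 of shEZH2#3 it was 6 of the 9, where 3091 of all 13464 genes were called. With shEZH2#1 against shluc MTCO1P12 fell, by 0.68 ± 0.23, where 19.0% of all genes were called. It did not pass with the GC and length offset (-0.58), and without library 1 of shEZH2#3 MTATP6P1 passed as well (-0.47). MTATP6P1 had 29.9, 33.3 and 23.6 CPM with shEZH2#1, 591, 81.4 and 79.2 CPM with shEZH2#3, and 49.2, 40.4 and 53.8 CPM with shluc. MTCO1P12 had 46.3, 44.8 and 40.3 CPM with shEZH2#1, 264, 131 and 117 CPM with shEZH2#3, and 82.0, 102 and 72.9 CPM with shluc. Together these copies had 1.24 counts per 100 mitochondrial counts in library 1 of shEZH2#3 and 0.365 to 0.608 in the other 8 libraries. MTCO2P12 and MTCO3P12 rose with shEZH2#3 by 1.58 ± 0.32 and 2.06 ± 0.33 (edgeR, adjusted p = 0.000703 and 0.000124), or by 0.86 and 1.52 without library 1, and neither passed with shEZH2#1. MTATP6P1 and MTCO1P12 rose there by 1.16 and 0.97 without library 1, against 2.87 and 1.48 with it.

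Of 18 nuclear genes that copy and transcribe mitochondrial DNA, 2 were called higher and 1 lower with shEZH2#1, which is 16.7% of them against 19.0% of all genes. With shEZH2#3, 1 was called higher and 3 lower, 22.2% against 44.2% of all genes. TFAM, which packages mitochondrial DNA and starts its transcription, had 8.52, 7.44 and 4.21 CPM with shEZH2#1, 4.30, 3.10 and 3.24 CPM with shEZH2#3, and 7.18, 13.3 and 8.13 CPM with shluc. It fell by 0.93 ± 0.25 with shEZH2#3 (edgeR, adjusted p = 0.00534), the group in which the mitochondrial mRNAs rose, but with the GC and length offset its value there was -0.29 and did not pass. TWNK, the replicative helicase, fell by 0.58 ± 0.16 with shEZH2#1 (edgeR, adjusted p = 0.0151). Its value with shEZH2#3 was -0.04 ± 0.16, which did not pass.

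Of 19 genes that process and degrade mitochondrial RNA, 3 rose and 2 fell with shEZH2#1, 26.3% of them against 19.0% of all genes. With shEZH2#3, 3 rose and 8 fell, 57.9% against 44.2% of all genes. With the GC and length offset 1 rose and 3 fell there, 21.1% of them, where 3206 of all 13252 genes were called. FASTKD2, an RNA-binding protein of the mitochondrial RNA granule, had 3.24, 3.19 and 2.74 CPM with shEZH2#1, 1.42, 1.31 and 1.42 CPM with shEZH2#3, and 4.61, 7.19 and 5.71 CPM with shluc. It fell by 1.60 ± 0.25 with shEZH2#3 (edgeR, adjusted p = 9.48e-05). PNPT1, a component of the mitochondrial degradosome, fell by 1.00 ± 0.19 with shEZH2#3, ANGEL2 by 1.17 ± 0.23, and FASTKD5, which acts on mRNAs that lack flanking tRNAs, by 0.74 ± 0.20. With the GC and length offset FASTKD2 and PNPT1 fell there by 1.02 and 0.42, while ANGEL2 (-0.57) and FASTKD5 (-0.37) did not pass. None of these 4 passed with shEZH2#1. They were named for passing between the hairpins, where they were the only ones called (21.1% of the 19, against 25.0% of all genes). Each was higher with shEZH2#1 than with shEZH2#3. For FASTKD5 that last difference, 0.57 ± 0.20, did not pass when any library of either hairpin was left out, for example 0.45 without library 1 of shEZH2#3 (edgeR, adjusted p = 0.137, within 0.0529 to 0.198 for these libraries). Of 16 tRNA and rRNA modification genes, 1 fell with shEZH2#1 (6.25% against 19.0% of all genes), while 1 rose and 3 fell with shEZH2#3 (25.0% against 44.2%). GTPBP3, a tRNA modification enzyme, rose by 0.60 ± 0.15 with shEZH2#3 (edgeR, adjusted p = 0.00462), but had 0.01 with the GC and length offset and did not pass. PUS1, which makes pseudouridine in tRNAs, passed in neither, and with that offset passed with shEZH2#3 at -0.30.

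Of 26 nuclear-encoded subunits of complexes I, III, IV and V, 5 rose and 1 fell with shEZH2#1 (median 0.12), 23.1% of them against 19.0% of all genes. With shEZH2#3, 8 rose and 4 fell (median 0.19), 46.2% against 44.2%. In these counts, with all libraries and no offset, the shares in these partners are near those over all genes. With the GC and length offset 6 rose and 3 fell with shEZH2#1, 34.6% of them, where 2400 of all 13252 genes were called. With shEZH2#3 it was 7 and 3, 38.5% of them, where 3206 genes were called. Without library 1 of shEZH2#3, 5 rose and 3 fell in that group, 30.8% of them, where 5316 of all 13464 genes were called. With shEZH2#1 it was then 7 and 2, 34.6% of them, where 2939 genes were called. NDUFS1, a core complex I subunit, fell by 0.76 ± 0.17 with shEZH2#3 (edgeR, adjusted p = 0.0014), where COX5A of complex IV rose by 0.56 ± 0.16 (adjusted p = 0.00785). CYC1, the cytochrome c1 of complex III, rose by 0.90 ± 0.17 with shEZH2#1 (adjusted p = 0.00152), or 0.40 with the GC and length offset, under which it was called lower with shEZH2#3 at -0.27, against 0.40 ± 0.17 without the offset, which did not pass. Under that offset NDUFS1 had -0.20 with shEZH2#3 and did not pass. Among the 4 succinate dehydrogenase genes, whose complex II has no mitochondrially encoded subunit, none passed with shEZH2#1. With shEZH2#3, 1 rose and 1 fell, 50.0% of them against 44.2% of all genes. The one that rose was SDHA, by 0.50 ± 0.15 (edgeR, adjusted p = 0.0137), a call lost with the offset (0.19). With the offset 0 rose and 1 fell there, 25.0% of them, where 3206 of all 13252 genes were called. Of 7 biogenesis regulators, 1 rose with shEZH2#1 (14.3% against 19.0% of all genes), while 1 rose and 2 fell with shEZH2#3 (42.9% against 44.2%). GABPB1, a subunit of nuclear respiratory factor GABP, fell by 1.36 ± 0.22 with shEZH2#3 (adjusted p = 0.000122), or by 0.75 with the offset, and NRF1 and PPRC1 passed in neither hairpin against shluc.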

How the data were processed

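RNA-seq of 9 irradiated KYSE180 libraries was analysed: 3 each with shEZH2#1, shEZH2#3 and shluc, by title. Per the labels' protocols, RNA was poly(A)-selected and the libraries were strand-marked. The submitters' processing notes name fastp, HISAT2, StringTie and GRCh38. No source used here gives versions, the counting step, its strand setting or its handling of reads that map to several places. The authors deposited estimated counts per gene, some with decimals. The series table equals the single-library tables in all 521145 values. Symbols came from a naming table for 51996 genes and from GENCODE 29 for 342, and 5567 had none.

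After rounding, edgeR 4.0.16 (R 4.3.3) was run on the counts (quasi-likelihood, TMM scaling, all 9 libraries in 1 fit, Benjamini-Hochberg over the 13252 genes that passed filterByExpr, threshold 0.05). SE is the log2 fold change over the square root of F. CPM used library totals, and 1 count was 0.0473 to 0.0669 CPM. The common dispersion was 0.0315. Shares were compared by exact two-sided permutation (scipy 1.17.1). Alternatives used limma 3.58.1, DESeq2 1.42.0, other scalings and filters, a GC and length offset (97.7% of tested genes had both values), a replicate block and left-out libraries. Scaling by library totals, and the gene lists and length correlations without library 1 of shEZH2#3 and with the offset, were added after seeing the data.

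All mitochondrially encoded genes were named. Of each other list, up to 4 members with the smallest adjusted p between the hairpins were named, or the 2 most abundant where none passed, and of nuclear mitochondrial-like genes the 4 most abundant. Members and lists were chosen with earlier results of these data known.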

Additional observations from a re-analysis of the deposited data

Results flagged for a closer look

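The hairpins' effects differed in the direct comparison of shEZH2#1 with shEZH2#3 for 14 of the 15 mitochondrially encoded genes with counts (edgeR, adjusted p below 0.05 over all genes). In that comparison 25.0% of all 13252 genes were called, 15.5% as lower and 9.46% as higher. The genes listed here were flagged by that call, which many other genes share. The log2 differences were -1.18 for MT-RNR2, -2.82 for MT-ND1, -2.35 for MT-ND2, -1.90 for MT-CO1, -1.75 for MT-CO2, -3.26 for MT-ATP8 and -2.25 for MT-ATP6. They were -1.96 for MT-CO3, -2.54 for MT-ND3, -3.48 for MT-ND4L, -2.18 for MT-ND4, -1.99 for MT-ND5, -2.28 for MT-ND6 and -2.44 for MT-CYB. All 14 passed in every alternative that gave them an adjusted p.

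The 13 nuclear genes below are every called member of their lists. Called between the hairpins were 11.1% of 18 transcription and replication genes, 21.1% of 19 RNA processing genes and none of 16 modification genes. So were 42.9% of 7 biogenesis regulators, 11.5% of 26 complex subunits and 25.0% of 4 succinate dehydrogenase genes, against 25.0% of all genes. Nuclear genes with lower levels in shEZH2#1 than in shEZH2#3 were TWNK (-0.54), PPRC1 (-0.51), NRF1 (-0.55), COX5A (-0.54) and SDHA (-0.61). Those with higher levels were TFAM (0.72), ANGEL2 (1.08), PNPT1 (0.83), FASTKD2 (0.96), FASTKD5 (0.57), GABPB1 (0.87), NDUFS1 (0.68) and CYC1 (0.50). Of these 13, TWNK, TFAM, FASTKD5, GABPB1, PPRC1, NRF1, COX5A and CYC1 each lost the call when some single library was left out. With the GC and length offset TWNK (-0.31), TFAM (0.43), FASTKD5 (0.43), GABPB1 (0.57), PPRC1 (-0.23) and NDUFS1 (0.41) lost it. The nuclear mitochondrial-like genes had -3.34 for MTATP6P1, -2.16 for MTCO1P12, -1.53 for MTCO2P12 and -1.71 for MTCO3P12.

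The mitochondrial share of counts differed by -4.53 percentage points between shEZH2#1 and shEZH2#3, and the rRNA share of mitochondrial counts by 4.94. In both, every library of one hairpin lay above and every library of the other below shluc. The exact permutation test used here cannot go below 0.1 with 3 against 3 libraries, and no other test of these shares was run.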

How the results depend on the processing

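Over 23 alternatives, the 9 genes called lower with shEZH2#1 and the 14 called with shEZH2#3 and between the hairpins were called each time, except that DESeq2 gave MT-ND4L no adjusted p. Among single mitochondrial genes 1009 values held, 19 newly passed and 4 reversed; among the other named genes 415 held, 57 no longer passed, 7 newly passed and 3 reversed. MT-RNR1 reversed for shEZH2#3 against shluc to -0.24 with library totals only, -0.22 without library 1 of shEZH2#3 and -0.28 without that library and shluc library 2, and between the hairpins to -0.17 without shEZH2#1 library 3. PUS1 reversed between the hairpins to -0.03 without shEZH2#1 library 3 and to -0.046 in both settings without shEZH2#3 library 1. Without single libraries MT-RNR1 ran from -0.22 to 0.40 (shEZH2#3 against shluc) and from -0.17 to 0.66 (between the hairpins), and PUS1 from -0.046 to 0.10. With the GC and length offset PUS1 passed between the hairpins at 0.32, also with the block added. The causes were not tested.

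The protein genes' median was -1.13 (shEZH2#1 against shluc) and 0.95 (shEZH2#3 against shluc) with library totals only, which shift the median of all genes to -0.35 and -0.47. It was 1.65 for shEZH2#3 with the GC and length offset, and 1.06 without its library 1, or 1.07 without shluc library 2 as well; between the hairpins these last settings gave -1.91 each. Leaving out single libraries gave -0.89 to -0.81, 1.06 to 1.59 and -2.48 to -1.91.

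Genes called with shEZH2#1 numbered 2523, and 3788 with library totals only (772 higher, 3016 lower); single left-out libraries gave 1159 to 3063, with 1344, 1159 and 1550 without shEZH2#1 library 2, shEZH2#1 library 3 and shluc library 2. With shEZH2#3, 5861 became 3206 with the GC and length offset and 3031 with the block added, and 4251 to 5823 without single libraries. Between the hairpins, 3311 became 1956 to 3941, the lowest without shEZH2#1 library 1. The higher and lower calls with shEZH2#3 were 2421 and 3720 under upper quartile scaling and 1129 and 5596 with library totals only, against 3237 and 2624; between the hairpins they were 2207 and 1404, and 1939 and 1214, against 1254 and 2057. With shEZH2#1 the offset gave 1089 and 1311, against 1478 and 1045.

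Same-numbered libraries did not deviate together (correlations -0.12 to 0.08); with the replicate block 2208, 5482 and 2938 genes were called, and 9, 14 and 14 mitochondrial ones.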
